A study of Mus musculus with 2 samples.

Results

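The cells described here are mouse aortic fibroblasts that carry RNA of Saa3, Sfrp4, Ccl19, Chl1 or Fbln1 more broadly than RNA of C7, Dpep1, Inmt, Gria4 or Entpd2, and they are called Saa3/Sfrp4 fibroblasts below. A cell barcode belonged to them when it had at least 300 genes, at most 10% mitochondrial UMIs (unique molecular identifiers, each standing for 1 captured RNA molecule), a UMI in at least 3 of the 8 fibroblast genes Pdgfra, Dcn, Serpinf1, Clec3b, Dpt, Mfap5, Scara5 and Cygb, and a UMI in at most 2 of the 8 endothelial genes Egfl7, Esam, Ecscr, Cdh5, Cldn5, Ptprb, Tie1 and Cd93. It also needed a UMI in at least 1 of the 5 genes of the Saa3 set, and in more genes of that set than of the C7 set. The rule found 2056 cells among 70127 deposited barcodes, 744 in the WT library and 1312 in the EC-iCD45KO library. The fibroblasts with the opposite balance, 562 in WT and 348 in EC-iCD45KO, are called C7/Dpep1 fibroblasts, and 688 and 476 fibroblasts had equal numbers of genes from both sets. The members were thus chosen by the UMIs of these 26 genes in the same cells, whose levels are given as a description.

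The study addressed the part of CD45, the leukocyte tyrosine phosphatase encoded by Ptprc, in endothelial cells during atherosclerosis. Both groups were ApoE-/- mice on the C57BL/6 background kept on a Western diet. Animals labelled EC-iCD45KO also lacked endothelial CD45, which tamoxifen had been used to delete, and those labelled WT kept it. Aortas were dissociated with collagenases I and IV and Liberase, cells were bound to CD31 microbeads, and 1 library per group was made with 10x Genomics chemistry. The promoter that drives the deletion, the ages, and how many animals went into a library were not given in the sources used here. Fibroblasts were the target of neither the deletion nor the beads.

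Fibroblasts of the adventitia, the outer coat of an artery, make its collagen and proteoglycans, and they also secrete chemokines and complement. Acute phase genes such as Saa3 and Lcn2 are switched on in stromal cells by cytokines that act through the transcription factors NF-kB and C/EBP. Sfrp4 encodes a secreted Wnt antagonist, Ccl19 a chemokine that draws T cells and dendritic cells through the receptor CCR7, Chl1 a cell adhesion protein of the L1 family, and Fbln1 the matrix protein fibulin-1.

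The libraries held 39849 WT and 30278 EC-iCD45KO barcodes, of which 39503 and 28960 passed the gene and mitochondrial limits. The Saa3/Sfrp4 fibroblasts had a median of 2293 UMIs in WT and 2089 in EC-iCD45KO and summed to 3317488 and 5940896 UMIs. The libraries shared 340 barcode sequences, and 1 of these was a Saa3/Sfrp4 fibroblast in both. Ptprc reached 93.2 CPM (its UMIs summed over a class of cells, per 1000000 UMIs of that class) in WT barcodes with 4 or more endothelial genes and at most 1 fibroblast gene, and 26.1 CPM in such EC-iCD45KO barcodes. Barcodes that also reached a similar marker limit for another cell class were left out there. Those kept could still hold leukocyte RNA below these limits, and its part in the Ptprc values was not tested. With 1 library in each group no difference has a replicate check and no test was possible, and a difference between preparations cannot be told apart from one between genotypes. All intervals are 95% intervals and cover counting error only.

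Saa3 (chromosome 7, 46711998 to 46715700, minus strand, GRCm38), an acute phase apolipoprotein, stood at 1288 CPM in the WT and 3357 CPM in the EC-iCD45KO Saa3/Sfrp4 fibroblasts. In C7/Dpep1 fibroblasts it stood at 55.0 and 135 CPM. Sfrp4 (chromosome 13, 19623104 to 19632994, plus strand) had 979.7 CPM in WT and 2329 CPM in EC-iCD45KO, against 463 and 453 CPM in C7/Dpep1 fibroblasts. Ccl19 (chromosome 4, 42754525 to 42756577, minus strand) had 299 and 1012 CPM, against 143 and 222 CPM. These 3 genes were higher in the Saa3/Sfrp4 than in the C7/Dpep1 fibroblasts of both libraries, and in the former each was higher in EC-iCD45KO than in WT. Ccl19 overlaps the gene 4930578G10Rik, and whether the counting used strand was not given, so reads of that pair may be mixed. Chl1 (chromosome 6, 103510586 to 103750211, plus strand) had 153 and 475 CPM, against 36.5 and 21.5 CPM. Fbln1 (chromosome 15, 85205949 to 85286535, plus strand) separated the classes least, with 426 and 520.0 CPM in the Saa3/Sfrp4 fibroblasts against 531 and 456 CPM, so in WT its summed level was lower than in the C7/Dpep1 fibroblasts.

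**Figure D1:**
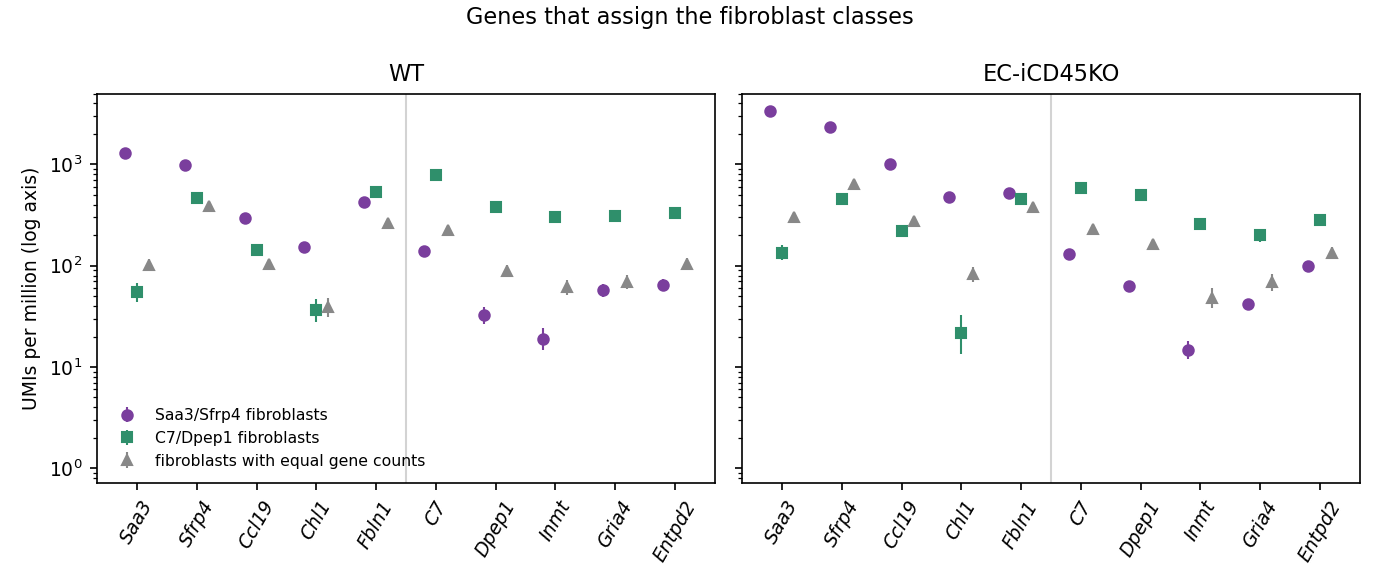
CPM (log axis) of the 5 genes of the Saa3 set and the 5 genes of the C7 set in 3 classes of fibroblasts, WT on the left and EC-iCD45KO on the right; bars are 95% Poisson intervals of the summed counts. Saa3 lies at 1288 CPM in the WT Saa3/Sfrp4 and 55.0 CPM in the WT C7/Dpep1 fibroblasts, while Fbln1 lies at 426 and 531 CPM in the WT Saa3/Sfrp4 and C7/Dpep1 fibroblasts.

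The genes of the C7 set were present at low levels in the same cells. C7, a terminal complement component, had 141 CPM in the WT and 130.1 CPM in the EC-iCD45KO Saa3/Sfrp4 fibroblasts, against 796 and 582 CPM in C7/Dpep1 fibroblasts. Inmt, a methyltransferase, had 19.0 and 14.8 CPM against 303 and 259 CPM. A UMI of none of the 5 C7 genes was found in 462 of 744 WT members (62.1%) and in 737 of 1312 EC-iCD45KO members (56.2%). The class is a range of a balance between gene sets, and many cells lay near its edge: 487 WT and 494 EC-iCD45KO members were ahead by 1 gene, and 330 and 254 fibroblasts outside it had equal numbers of at least 1. Saa3 had 396 and 1291 CPM just inside the edge and 219.6 and 537 CPM just outside, and Sfrp4 had 718 and 1498 CPM inside and 840.2 and 1135 CPM outside.

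Most cells owed their place to few of the 5 genes in WT and to more of them in EC-iCD45KO. Exactly 1 of the 5 genes was seen in 40.5% of WT cells and 19.0% of EC-iCD45KO cells. At least 1 UMI of Saa3 was found in 221 WT cells (29.7%) and 651 EC-iCD45KO cells (49.6%). Sfrp4 was found in 474 (63.7%) and 922 cells (70.3%), Ccl19 in 247 (33.2%) and 860 (65.5%), Chl1 in 165 (22.2%) and 555 (42.3%), and Fbln1 in 426 (57.3%) and 755 (57.5%). After every cell was thinned to 1000 UMIs, Saa3 was seen in 29.9% of WT and 43.7% of EC-iCD45KO members. In thinned B cell barcodes, which should lack the gene, the Saa3 share was 0.562% of 7296 WT and 1.39% of 361 EC-iCD45KO barcodes. Their median depths before thinning were 1826 and 2426 UMIs. Saa3 RNA was unevenly spread: the 10% of members richest in it, 75 WT and 132 EC-iCD45KO cells, held 92.4% and 82.6% of all its UMIs.

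Some secreted genes that the rule did not use were higher in cells with more of the 5 genes, and others were lower. Cxcl14, a chemokine, was at 56.8 CPM in the WT members with 1 gene and at 3433 CPM in those with all 5, and at 127 and 2166 CPM in EC-iCD45KO. C3, the central complement component, had 426 and 3624 CPM at these ends in WT, and 416 and 4611 CPM in EC-iCD45KO. Pi16, a marker of adventitial fibroblasts, had 38.1 and 1163 CPM, and 169 and 862 CPM. Cxcl12, Il33 and Cxcl13, a chemokine, an alarmin and a B cell chemokine, moved the same way: Cxcl13 had 11.1 CPM in WT members with 1 gene and 2494 CPM in those with 5, and 6.52 and 305 CPM in EC-iCD45KO. Hp, which encodes haptoglobin, had 234 and 1131 CPM in WT at the ends of this range and 421.5 and 895 CPM in EC-iCD45KO. Spp1, which encodes osteopontin, ran the other way, with 17155 and 7185 CPM in WT and 14781 and 1809 CPM in EC-iCD45KO, and its lowest WT value was 890.5 CPM at 4 genes. Postn had 217 CPM in WT members with 1 gene and 13.7 CPM in those with 5, and 187 and 63.1 CPM in EC-iCD45KO, and Lum had 4757 and 3182 CPM, and 4321 and 2927 CPM. Lcn2 had 484 and 1217 CPM in WT but 1434 and 892 CPM in EC-iCD45KO. Members with all 5 genes were few (31 WT, 186 EC-iCD45KO) and deep, with median totals of 5593 and 4683 UMIs against 2194 and 1362 UMIs in members with 1 gene. By the rule, members with 1 gene could have no UMI of the C7 set, while those with more genes could. The parts of depth and of this limit in the pattern were not tested.

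**Figure D2:**
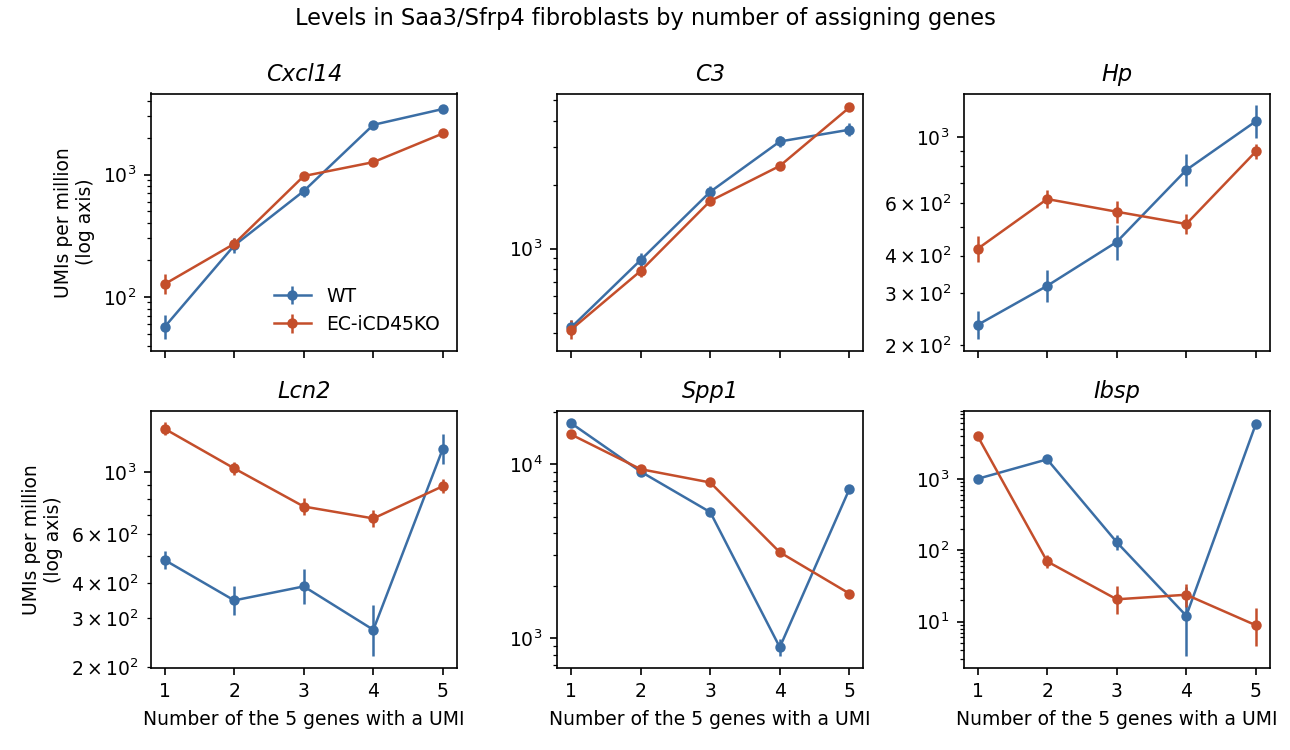
CPM (log axis) of 6 genes outside the rule in Saa3/Sfrp4 fibroblasts, by how many of the 5 assigning genes had a UMI, for WT and EC-iCD45KO; bars are 95% Poisson intervals. Cxcl14 and C3 climb with the number of genes in both libraries, Spp1 is highest at 1 gene, and the WT Ibsp level of 5858 CPM at 5 genes rests on 31 cells.

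Most cells carried further fibroblast genes, and some carried genes that go against the label. The 12 fibroblast genes that the rule did not use, among them Col1a1, Col3a1, Lum and Mmp2, summed to 12392 CPM in WT and 16006 CPM in EC-iCD45KO, and 96.0% and 97.3% of the cells had a UMI in at least 2 of them. The rule had already asked for 3 of 8 fibroblast genes. Macrophage markers passed the same bar of 2 in 66.9% and 81.2% of members, so this bar does not separate cell types. Mesothelial and adipocyte markers were low. The 8 mesothelial genes summed to 13.9 CPM in WT and 12.5 CPM in EC-iCD45KO, with 3 and 4 of them at 0. The 6 adipocyte genes summed to 2.71 and 4.71 CPM. Pericyte markers summed to 526 and 529 CPM, and 19.9% and 22.6% of members had UMIs in at least 2 of them. UMIs in at least 2 of the 8 smooth muscle markers were found in 42.5% of WT and 40.0% of EC-iCD45KO members. In C7/Dpep1 fibroblasts these shares were 24.0% and 35.9%, and in fibroblasts with equal gene counts 35.5% and 42.6%. Against the label, 58 WT members (7.80%) and 24 EC-iCD45KO members (1.83%) had UMIs in at least 2 of the 9 bone and cartilage genes Ibsp, Mmp13, Bglap, Chad, Acan, Col2a1, Hapln1, Matn3 and Cnmd, a list chosen after these data were seen. Those cells held 90.4% of the Ibsp UMIs of all WT members and 98.6% of those in EC-iCD45KO. Ibsp helped to pick them, so its shares and levels in and outside these cells follow in part from the choice. Ibsp, a bone sialoprotein, stood in them at 8595 CPM in WT and 16121 CPM in EC-iCD45KO, and at 146 and 9.46 CPM in the other members. Chil1, a chitinase-like secreted protein, stood at 270.3 and 13757 CPM in those cells, and Lcn2 at 693 and 6228 CPM. Nothing in the files locates a cell in the adventitia or the plaque.

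RNA of immune cells was found in most members and differed between the libraries. The 8 macrophage markers summed to 1945 CPM in WT and 4607 CPM in EC-iCD45KO members, none of them was at 0, and 66.9% and 81.2% of members had UMIs in at least 2. The 8 B cell markers went the other way, with 1187 and 307 CPM, and so did the 6 plasma cell markers, with 5657 and 1077 CPM. Neutrophil markers summed to 35.3 and 124 CPM, smooth muscle markers to 3304 and 3202 CPM, and endothelial genes outside the rule to 237 and 259 CPM. Among all kept barcodes, 5541 of WT and 11453 of EC-iCD45KO carried at least 5 macrophage markers, and 8243 and 393 carried at least 4 B cell markers, each with at most 1 fibroblast gene. These counts leave out barcodes that also reached such a marker limit for another cell class. Only 74 WT and 133 EC-iCD45KO members had fewer than 2 markers each of macrophages, smooth muscle, T and NK cells, B cells and neutrophils. So did 98 and 49 C7/Dpep1 fibroblasts. These are the cells called without other classes' markers below. They could still hold 1 marker of each of those classes. Plasma, pericyte, dendritic and chondrocyte markers were not used to leave cells out, and endothelial genes were limited only by the rule.

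Set against C7/Dpep1 fibroblasts, Saa3/Sfrp4 fibroblasts had more RNA of Hp, Lcn2, Cxcl14, Col1a1 and Col3a1 and less RNA of Gsn, F3, Abca8a and other C7-type genes. A gene was counted here when its CPM differed at least 2-fold in both libraries with intervals that left out 0 on the log2 scale. Of 10466 genes, 68 were higher (0.65%) and 83 lower (0.793%). In WT alone 252 were higher (2.41%) and 272 lower (2.6%), and in EC-iCD45KO alone 178 (1.7%) and 328 (3.13%). Both classes were cut from the same fibroblasts by their RNA, so these counts describe the cut.

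Hp (chromosome 8, 109575128 to 109579172, minus strand), the haemoglobin-binding acute phase protein, had 399 CPM in WT and 618 CPM in EC-iCD45KO Saa3/Sfrp4 fibroblasts, against 42.9 and 56.8 CPM in C7/Dpep1 fibroblasts. The WT library gave a log2 ratio of 3.22 (interval 2.86 to 3.60) and the EC-iCD45KO library one of 3.44 (3.07 to 3.84), and these intervals overlap. Lcn2 (chromosome 2, 32384633 to 32388252, minus strand), the iron-siderophore binding lipocalin, had 463 and 938 CPM against 21.7 and 271 CPM, so its log2 ratio was larger in WT, 4.41 (3.92 to 4.95), than in EC-iCD45KO, 1.79 (1.62 to 1.97). In the cells of both classes without 2 or more markers of another class that order turned, with 2.90 in WT and 6.03 in EC-iCD45KO. Neutrophil barcodes also carried both, at 1068 and 879.8 CPM for Hp and 783 and 741 CPM for Lcn2, while neutrophil markers summed to 35.3 and 124 CPM in the members. Slc39a14, a zinc and iron importer outside the fixed lists, had 60.9 and 131 CPM, with log2 ratios of 1.67 and 2.02. The metallothioneins Mt1 and Mt2 stood higher too, at log2 ratios of 0.75 and 0.88 for Mt1 and 0.80 and 1.09 for Mt2. In the list of 32 acute phase and NF-kB target genes outside the rule, 28 were measured, 6 were at least 2-fold higher and 1 lower in WT, and 7 were higher and none lower in EC-iCD45KO. Of all genes, 2.41% were higher and 2.6% lower in WT, and 1.7% and 3.13% in EC-iCD45KO. The list's median log2 ratio was 0.08 in WT and 0.61 in EC-iCD45KO, against -0.07 over all genes in each library.

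For Saa3, Lcn2, Ccl19, Cxcl14, Chl1 and Fbln1, genes of this class with an entry in the promoter table used, the 250 bases before the RefSeq start (build GRCm38.p6) were searched on both strands for an NF-kB site pattern (GGG, any 2 bases, TT, any base, CC) and for TTGCNNAA, a C/EBP site pattern. The NF-kB letters occur in 1082 of 27025 promoters of this length (4.00%) and the C/EBP letters in 2582 (9.55%). Saa3 has the C/EBP letters on the minus strand of the printed sequence, 99 to 92 bases before the start. Lcn2 has them on the plus strand, 216 to 209 bases before the start. Ccl19 has the NF-kB letters on the minus strand, 250 to 241 bases before the start. Each is printed below on its gene's strand, with the matches in capitals. A match says only that the letters are there.
Saa3, chr7:46715677-46715926, minus strand: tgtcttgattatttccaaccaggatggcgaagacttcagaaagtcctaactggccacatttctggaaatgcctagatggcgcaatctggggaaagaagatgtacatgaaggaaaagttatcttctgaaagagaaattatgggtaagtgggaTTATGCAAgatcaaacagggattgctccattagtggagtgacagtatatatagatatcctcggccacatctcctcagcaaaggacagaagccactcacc
Lcn2, chr2:32387740-32387989, minus strand: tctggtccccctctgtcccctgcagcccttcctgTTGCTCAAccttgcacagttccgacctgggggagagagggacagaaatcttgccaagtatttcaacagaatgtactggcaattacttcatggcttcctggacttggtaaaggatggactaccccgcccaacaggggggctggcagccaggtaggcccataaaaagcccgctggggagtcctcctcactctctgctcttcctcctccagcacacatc
Ccl19, chr4:42756366-42756615, minus strand: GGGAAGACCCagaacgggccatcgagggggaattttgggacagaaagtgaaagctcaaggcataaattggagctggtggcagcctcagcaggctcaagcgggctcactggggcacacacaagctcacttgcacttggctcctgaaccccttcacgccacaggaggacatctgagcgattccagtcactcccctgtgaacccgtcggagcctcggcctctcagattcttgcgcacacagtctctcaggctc
The Saa3 and Lcn2 windows held no NF-kB match and the Ccl19 window no C/EBP match, and the windows of Cxcl14, Chl1 and Fbln1 held neither. Hp and Sfrp4 were not searched.

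Chemokines were tested only one by one or within the lymphoid stroma and acute phase lists. Cxcl14 (chromosome 13, 56288643 to 56296551, minus strand) had 679.7 CPM in WT and 1016 CPM in EC-iCD45KO, against 169 and 164 CPM in C7/Dpep1 fibroblasts. Its log2 ratios were 2.00 (1.82 to 2.19) and 2.63 (2.41 to 2.86). Cxcl13, which recruits B cells, had 254 and 110.1 CPM against 57.5 and 66.5 CPM, log2 ratios of 2.14 and 0.73, and in the cells without other classes' markers the ratios were 0.01 and 3.19. Cxcl5, a neutrophil chemokine, had 25.3 and 30.6 CPM against 5.76 CPM in WT and a single UMI in EC-iCD45KO. In the cells of both classes without 2 or more markers of another class its log2 ratios were -0.32 and -0.81. Only 98 WT and 49 EC-iCD45KO C7/Dpep1 fibroblasts were left there, the latter with a single Cxcl5 UMI at most. So few counts do not settle a direction. The monocyte chemokines Ccl2 and Ccl7 had log2 ratios of 0.71 and 0.73, and of 0.63 and 1.14. Without other classes' markers Ccl2 was at -0.57 in WT and 3.41 in EC-iCD45KO, and Ccl7 at -0.56 and 4.30. In the lymphoid stroma list 19 of 21 genes were measured, 5 were at least 2-fold higher in WT and 7 in EC-iCD45KO, and none was lower in either. By comparison, 2.41% of all genes were higher and 2.6% lower in WT, and 1.7% and 3.13% in EC-iCD45KO. The list's median log2 ratio was 0.05 in WT and 0.73 in EC-iCD45KO. Enpp2, which makes lysophosphatidic acid, was among its higher genes at 97.1 and 72.0 CPM against 46.0 and 12.7 CPM.

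Several matrix genes were higher, and others were not. Col3a1 had 2494 CPM in WT and 4524 CPM in EC-iCD45KO against 1123 and 1619 CPM, and Col1a1 had 1355 and 2095 CPM against 753 and 885 CPM. As a base for the list counts, 2.41% of all genes were at least 2-fold higher and 2.6% lower in WT, and 1.7% and 3.13% in EC-iCD45KO. Of 20 measured collagen chains, 4 were at least 2-fold higher in WT and 3 in EC-iCD45KO, with none lower and medians of 0.34 and 0.26. In the cells of both classes without other classes' markers the EC-iCD45KO medians were -0.01 for collagens and -0.07 for the proteoglycan and matricellular list. Among 26 proteoglycan and matricellular genes, 9 were higher and 3 lower in WT, and 3 higher and 3 lower in EC-iCD45KO. Of 20 fibulin and elastic fibre genes, 3 were higher and 2 lower in WT, and none was higher and 1 lower in EC-iCD45KO, where 10 lay above 0. Fibronectin (Fn1) had log2 ratios of 1.40 and 0.91, periostin (Postn) 1.38 and 1.19, and Ccn5, a matricellular inhibitor of smooth muscle growth, 1.43 and 0.97. Ogn, Podn and Sparcl1, a pair of small leucine-rich proteoglycans and a SPARC relative, stood lower, at -1.71 and -1.22 for Ogn, -1.18 and -1.26 for Podn, and -0.86 and -1.41 for Sparcl1. Contractile genes had a median of 0.70 in WT, where 3 of 14 were at least 2-fold higher, and of 0.08 in EC-iCD45KO, where none was. Smooth muscle markers summed to 3304 CPM in WT Saa3/Sfrp4 and 1701 CPM in WT C7/Dpep1 fibroblasts, and to 3202 and 2844 CPM in EC-iCD45KO.

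Among the remaining genes furthest above the C7/Dpep1 level were genes of bone and cartilage. Mmp13 (chromosome 9, 7272514 to 7283331, plus strand), a collagenase, had 654 and 322 CPM against 10.2 and 2.94 CPM. Ibsp had 1315 and 640.5 CPM against 331 and 3.91 CPM, the last from 4 UMIs. Col2a1, the cartilage collagen, had 95.9 and 27.4 CPM against 21.1 CPM in WT and no UMI in EC-iCD45KO, where its ratio is a lower bound of 3.22 on the log2 scale, from 3 counts. Without the cells that carry 2 or more bone and cartilage genes, a list that holds both, Mmp13 stood at 390.4 and 148 CPM. Ibsp then stood at 146 and 9.46 CPM. The others were Crabp2, a retinoic acid binding protein, Slurp1, Kcnj15, Fgf14, Grin2a, the Wnt antagonist Wif1, and Chil1, with log2 ratios from 1.61 to 4.81. Slurp1 was at -1.27 in WT without the deepest 10% of cells, and Grin2a at -1.40 in EC-iCD45KO without other classes' markers. Crabp2 had 22.9 and 48.6 CPM against 2.56 and 5.87 CPM, and Wif1 had 24.1 and 21.7 CPM against 7.67 and 6.85 CPM.

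**Figure D3:**
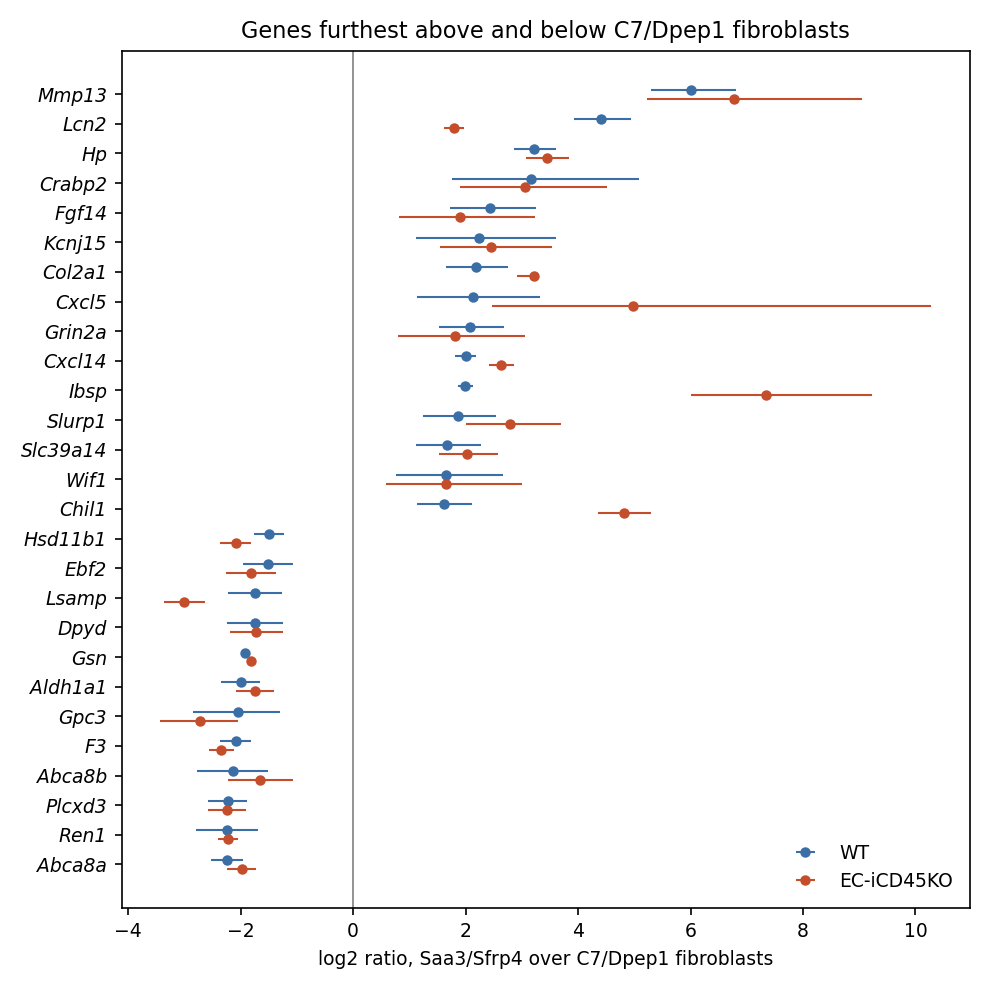
Log2 ratio of CPM in Saa3/Sfrp4 over C7/Dpep1 fibroblasts for the 15 genes furthest above and the 12 furthest below in both libraries, genes of the rule left out; bars are 95% counting intervals. Hp lies at 3.22 and 3.44, Lcn2 at 4.41 in WT and 1.79 in EC-iCD45KO, and the EC-iCD45KO point of Col2a1 is a lower bound with no upper limit.

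The genes named below the C7/Dpep1 level were chosen for being lower in both libraries. Gsn, which encodes the actin-severing protein gelsolin, had 1058 CPM in WT and 991 CPM in EC-iCD45KO against 4021 and 3507 CPM, log2 ratios of -1.93 and -1.82. F3, which encodes tissue factor, the trigger of coagulation, had 52.2 and 56.0 CPM against 221 and 284 CPM. Aldh1a1, an enzyme of retinoic acid synthesis, had 33.8 and 32.3 CPM against 135 and 109 CPM. The lipid transporters Abca8a and Abca8b had log2 ratios of -2.24 and -1.98, and of -2.13 and -1.65, though reads of these related genes may be split between them. Ren1, which encodes renin, had ratios of -2.24 and -2.23. Plcxd3, Gpc3, Lsamp, Dpyd, Ebf2 and Hsd11b1 lay between -1.49 and -3.00. Of the 23 adventitial fibroblast genes listed with Pi16 and Cd55, 19 were measured, none was higher, 2 were lower in WT and 3 in EC-iCD45KO, and Pi16 itself was lower at -0.52 and -0.64. The shares of all genes were 2.41% higher and 2.6% lower in WT, and 1.7% and 3.13% in EC-iCD45KO.

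Within the class, the cells with a Saa3 UMI had more RNA of most acute phase genes: 24 of 28 listed genes were above 0 on the log2 scale in WT (median 0.68) and 22 of 29 in EC-iCD45KO (median 0.57), against 4940 of 10987 and 4908 of 10715 genes. This splits on a measured gene, in 221 WT cells against 523 and 651 EC-iCD45KO cells against 661, and it is a description. Saa1, a related serum amyloid gene that can share reads with Saa2, had 55.7 CPM with and 2.89 CPM without a Saa3 UMI in WT, and 32.5 and 2.05 CPM in EC-iCD45KO. Hp had 1028 and 166 CPM in WT and 873 and 354 CPM in EC-iCD45KO. Cfb, complement factor B, had 703 and 184 CPM and 987 and 304 CPM. The chemokines Cxcl5, Ccl7, Ccl11, Ccl2 and Cxcl13 were higher in both libraries, with log2 ratios of 4.49 and 2.82 for Cxcl5 and of 2.48 and 1.86 for Ccl7. The kininogens Kng1 and Kng2 were too, at 2.79 and 2.41 and at 1.84 and 1.72. Tnfaip6, an inhibitor of inflammation that modifies hyaluronan, was at 1.77 and 1.56, and Lgi2 at 1.70 and 2.10. Lum, the proteoglycan lumican, was lower, at -0.25 and -0.58, and so was Spp1, at -0.36 and -0.25. Genes of the C7 set were mostly higher too, at 1.07 and 1.39 for C7 and 2.08 and 1.42 for Dpep1. Gria4 was at 1.12 and 1.70, Entpd2 at 1.36 and 0.82, and Inmt at -0.51 (-1.52 to 0.39) and 0.83. A member with genes of the C7 set had to have more genes of the Saa3 set, and a Saa3 UMI counts toward these. Saa3 was the only gene of its set in 16 WT and 29 EC-iCD45KO members. The part of the rule in these ratios was not tested.

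Saa3/Sfrp4 fibroblasts made up more of the fibroblasts in EC-iCD45KO than in WT. After thinning every barcode to 1000 UMIs they were 328 of 907 fibroblasts in WT (36.2%, exact interval 33.0 to 39.4%) and 684 of 1137 in EC-iCD45KO (60.2%, 57.2 to 63.0%). The difference was 24.0 percentage points (Newcombe interval 19.7 to 28.1). Thinning left out 278 WT and 380 EC-iCD45KO fibroblasts, and without it the shares were 37.3% and 61.4%. C7/Dpep1 fibroblasts were 28.1% in WT and 16.0% in EC-iCD45KO, and fibroblasts with equal gene counts 35.7% and 23.8%. Of all kept barcodes with at least 1000 UMIs, 1.11% were Saa3/Sfrp4 fibroblasts in WT and 3.53% in EC-iCD45KO. The second share depends on the B and T cells, which filled far more of the WT library. Without barcodes that had 3 or more lymphoid or plasma markers the difference went from 2.42 to 1.64 points, but that setting also left only 156 WT and 637 EC-iCD45KO members. With all fibroblasts kept and the other such barcodes left out, an alternative chosen after seeing the data, the shares were 3.57% in WT and 3.78% in EC-iCD45KO, a difference of 0.205 points (-0.277 to 0.667). The rule counts genes that themselves had more RNA in EC-iCD45KO, so a larger share and a higher level of these genes cannot be told apart, and both libraries passed through CD31 beads.

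**Figure D4:**
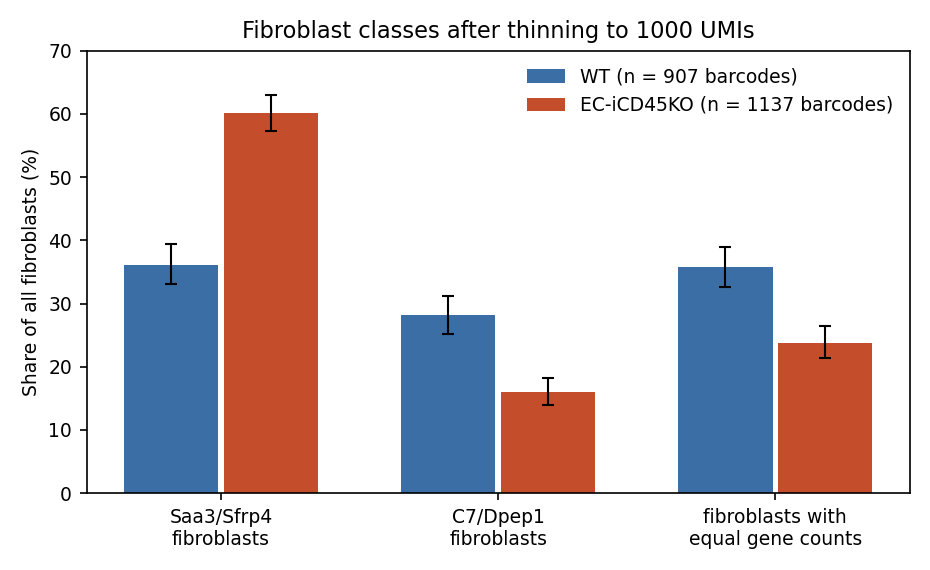
Share of all fibroblasts (%) in 3 classes after thinning to 1000 UMIs, in 907 WT and 1137 EC-iCD45KO barcodes; bars start at 0 and lines are exact 95% binomial intervals. Saa3/Sfrp4 fibroblasts were 36.2% in WT and 60.2% in EC-iCD45KO, and the other classes were smaller in EC-iCD45KO.

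The 5 assigning genes were also compared over all fibroblasts, where the split between classes plays no part. Saa3 had 646 CPM over WT and 2409 CPM over EC-iCD45KO fibroblasts, which is 1.90 (1.85 to 1.95) on the log2 scale. Sfrp4 had 681 and 1794 CPM, a ratio of 1.40 (1.35 to 1.44). Ccl19 had 203 and 781 CPM at 1.94 (1.86 to 2.02), and Chl1 91.5 and 348 CPM at 1.93 (1.80 to 2.05). Fbln1 differed least, with 398 and 487 CPM at 0.29 (0.22 to 0.36). Of the C7 set, C7, Inmt and Gria4 were lower in EC-iCD45KO, at -0.62, -0.92 and -0.83, while Dpep1 and Entpd2 lay at 0.08 and -0.08. Within the Saa3/Sfrp4 class the ratios were 1.38 for Saa3, 1.25 for Sfrp4, 1.76 for Ccl19 and 1.63 for Chl1. As these genes chose the cells, the ratios within the class are a description. In the 74 WT and 133 EC-iCD45KO members without 2 or more markers of another class they were 1.01, 0.59, 1.44 and 0.94.

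Comparing EC-iCD45KO with WT across 10917 genes in the Saa3/Sfrp4 fibroblasts, outside the rule, 225 were at least 2-fold higher (2.06%) and 365 at least 2-fold lower (3.34%). The median log2 ratio of all genes was -0.06. Where the mean of both libraries reached 50 CPM, the genes furthest up held secreted and myeloid ones, and those furthest down B cell, plasma cell and bone ones.

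Chil1 (chromosome 1, 134182176 to 134190181, plus strand) was the gene with the largest ratio upward, at 83.8 CPM in WT and 1067 CPM in EC-iCD45KO, or 3.67 (3.50 to 3.85) on the log2 scale. In C7/Dpep1 fibroblasts it had 27.5 and 38.2 CPM, but in fibroblasts with equal gene counts it had 23.0 and 234 CPM. Without the cells that carried 2 or more bone and cartilage genes it stood at 53.9 and 549.6 CPM, a ratio of 3.35. Ccl2 had 94.4 and 328 CPM (1.80, interval 1.62 to 1.97) and Ccl7 121 and 417 CPM (1.79, interval 1.64 to 1.95). Macrophage barcodes carried Ccl2 at 256 and 457 CPM and Ccl7 at 199 and 389 CPM. In the members without 2 or more markers of another class, the ratios were 2.60 for Ccl2, 2.38 for Ccl7 and 1.96 for Chil1. Kng2 had 42.2 and 118 CPM, at 1.48 in the Saa3/Sfrp4 fibroblasts and -0.50 in the C7/Dpep1 fibroblasts. Lyz2, Fcgr3, Il1b and Ccl12 were higher at 1.65, 1.52, 1.43 and 1.39. These are genes of macrophages or neutrophils, and they moved beside the macrophage marker sum of 1945 and 4607 CPM. Ccl12 was at -0.04 in the members without other classes' markers, and the part of macrophage RNA in these 4 was not tested.

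Ren1 (chromosome 1, 133350510 to 133360325, plus strand) and Mpp6 (chromosome 6, 50110241 to 50198939, plus strand), a scaffold protein of cell junctions, were higher in both fibroblast classes. Ren1 had 12.4 and 99.7 CPM in the Saa3/Sfrp4 and 58.2 and 468 CPM in the C7/Dpep1 fibroblasts, at 3.01 in each. Mpp6 had 42.8 and 292 CPM and 38.4 and 279 CPM, ratios of 2.77 and 2.86. Macrophage barcodes had Mpp6 at 64.2 and 61.9 CPM and endothelial ones at 31.3 and 28.2 CPM, so the libraries were close there, while smooth muscle barcodes had 25.1 and 80.2 CPM. Mpp6 overlaps Gsdme.

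The genes furthest down were led by RNA of B and plasma cells: Ighg2c, Ighm, Cd79a, Ly6d, Iglc2, Bank1 and Cd79b had log2 ratios from -7.71 to -3.22, and C7/Dpep1 fibroblasts had ratios from -6.51 to -1.78 for the same genes. Ighg2c had 457 CPM in WT and 2.19 CPM in EC-iCD45KO, beside B cell marker sums of 1187 and 307 CPM and plasma cell sums of 5657 and 1077 CPM. Bank1 was at 0.38 (-2.43 to 3.84) in the members without other classes' markers, where it had 2 UMIs in WT and 4 in EC-iCD45KO. Inpp4b and Ccl21a were at -2.47 and -2.46. Bglap and Bglap2, the osteocalcin genes, which are near-identical copies, had 339 and 260 CPM in WT and 2.52 and 7.74 CPM in EC-iCD45KO, and Chad, a cartilage matrix protein, 91.9 and 9.93 CPM. Only 1.08% of WT and 0.152% of EC-iCD45KO members had a Bglap UMI. Without the members carrying 2 or more bone and cartilage genes, Bglap, itself on that list, had 1 UMI in WT and none in EC-iCD45KO.

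The acute phase and NF-kB list was higher in EC-iCD45KO: 24 of its 29 measured genes had ratios above 0, 7 were at least 2-fold higher, none was lower, and the median was 0.56, against 4551 of 10917 genes above 0. By comparison, 2.06% of all genes were at least 2-fold higher and 3.34% lower. In C7/Dpep1 fibroblasts, which were sampled from the same libraries, the median of this list was 0.23. There 17 of its 28 measured genes were above 0, 4 were at least 2-fold higher and 1 lower. Over all 10915 genes 5134 were above 0, 258 higher and 474 lower. Lcn2, Mt1 and Mt2 were higher in that class too. Lcn2 had 21.7 CPM in WT and 271 CPM in EC-iCD45KO there, Mt1 1005 and 1703.5 CPM, and Mt2 215 and 366 CPM. Members of the list were chosen with such results in view. In the Saa3/Sfrp4 fibroblasts Lcn2 had 463 and 938 CPM, a ratio of 1.02 (0.94 to 1.10). Mt2 had 375 and 781 CPM (1.06, interval 0.97 to 1.15), and Mt1 1695 and 3132 CPM (0.89, interval 0.84 to 0.93). Cxcl2, a neutrophil chemokine, had 285 and 713 CPM (1.32, interval 1.22 to 1.43), Cxcl1 194 and 358 CPM (0.88), and Il6, the cytokine, 30.7 and 62.1 CPM (1.01, interval 0.69 to 1.35). Slc39a14 had 60.9 and 131 CPM (1.11). Hp was at 0.63 (0.54 to 0.72), and at 0.31 in cells with at least 2 assigning genes, the superoxide dismutase Sod2 at 0.62, and the transcription factor genes Cebpb and Cebpd at 0.32 and 0.46. Vcam1, an adhesion molecule on the same list, had 1028 and 1058 CPM, but 651 and 325 CPM in the members without other classes' markers. With the class restricted to cells with at least 2 of the 5 assigning genes, 443 in WT and 1063 in EC-iCD45KO, the list's median was 0.31.

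Complement genes had the same median, 0.56, with 12 of 15 above 0, 4 at least 2-fold higher and none lower, against 2.06% of all genes higher and 3.34% lower. Cfb had 324 and 651 CPM (interval 0.91 to 1.10), C3 1238 and 2113 CPM (0.77, interval 0.72 to 0.82), C4b 223 and 381 CPM (0.77, interval 0.65 to 0.89), and Serping1, which encodes the C1 inhibitor, 1237 and 1946 CPM (0.65, interval 0.60 to 0.70). The proteases C1s1 and C1ra were at 0.48 and 0.39. In C7/Dpep1 fibroblasts C3 was at -0.79, C4b at -0.87, Cfb at -0.25 and Serping1 at 0.02, and the list's median was 0.02. The 2 comparisons draw on the same pair of libraries. In the members without other classes' markers, C3 was at -0.06, C4b at -0.03 and Cfb at 0.22, and the list's median was -0.10. C3 was also higher in cells with more of the assigning genes, and such cells were a larger share in EC-iCD45KO; the part of this was not tested.

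**Figure D5:**
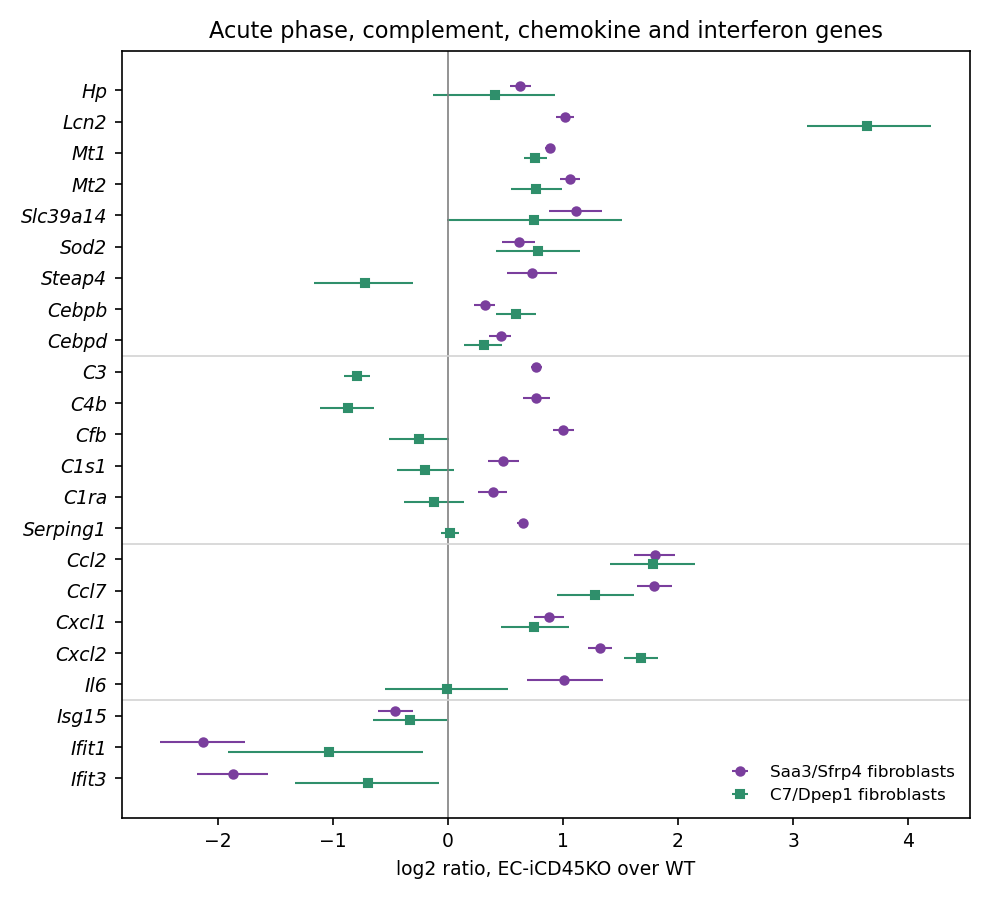
Log2 ratio of CPM in EC-iCD45KO over WT in Saa3/Sfrp4 and C7/Dpep1 fibroblasts for genes of acute phase response, complement, chemokines and Il6, and interferon response, from top to bottom; bars are 95% counting intervals. C3, C4b and Steap4 lie above 0 in Saa3/Sfrp4 and below 0 in C7/Dpep1 fibroblasts, and Ccl2 lies at 1.80 and 1.78.

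Genes of growth factor binding and of the matrix differed more moderately. Igfbp4 had 860.0 and 1907 CPM (1.15, interval 1.09 to 1.21) and Igfbp6 252 and 567 CPM (1.17, interval 1.06 to 1.28), both binding proteins of insulin-like growth factors, and Igf1 was at 0.68. In C7/Dpep1 fibroblasts these 3 were at 0.08, 0.18 and -0.38. The growth factor list as a whole had a median of 0.05, with 7 of 11 genes above 0, 3 at least 2-fold higher and 1 lower. Across all genes the shares were 2.06% higher and 3.34% lower. Col14a1 had 268 and 580 CPM (1.11) and Col3a1 2494 and 4524 CPM (0.86), while the collagen list as a whole had a median of 0.23, with 1 of 20 higher and 1 lower. Mfap4, a microfibril protein, was at 1.21, and Has1, a hyaluronan synthase, at 1.60 with 23.8 and 72.0 CPM. Pi16 had 241 and 463 CPM (0.94), and 1.06 in C7/Dpep1 fibroblasts. The L1 family member Nfasc was at 1.09 and the guidance cue Slit3 at 1.01, with 3 of 13 genes in the nerve adhesion list higher and 1 lower, a median of 0.27, and -0.22 with no minimum on CPM.

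Chemokines of lymphoid stroma did not move together. Cxcl14, outside the list, was at 0.58 and Il33 at 0.63, Cxcl12 was level at 1454 and 1401 CPM, and Cxcl13 was lower, with 254 and 110.1 CPM (-1.21, interval -1.35 to -1.06). In the members without other classes' markers Cxcl13 stood at 0.92 and Cxcl14 at -0.10. Tnfsf11, which encodes RANKL, had 14.8 and 30.5 CPM (1.04). The lymphoid stroma list had a median of 0.13, with 1 of 20 genes higher and 2 lower. By comparison, 2.06% of all genes were higher and 3.34% lower. Among Wnt genes, Sfrp2 was at 0.93, Sfrp1 at 0.84 and Dkk3, a secreted glycoprotein of the Dickkopf family, at -0.73, with no gene higher and 3 of 21 lower.

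Interferon response genes were lower in EC-iCD45KO, at a median of -0.45, with 21 of 25 measured genes below 0 and 4 of them at least 2-fold lower, against 4551 of all 10917 genes above 0 and 3.34% at least 2-fold lower. Ifit1 had 63.9 and 14.6 CPM (-2.13, interval -2.50 to -1.76) and Ifit3 81.7 and 22.4 CPM (-1.87), both antiviral effector genes, and Isg15 was at -0.46. Bst2, which encodes tetherin, was at 0.55. C7/Dpep1 fibroblasts had a median of -0.39 for the list. Without the deepest 10% of cells the median was -0.08, Ifit1 was at -0.89 and Isg15 at 0.02, and without the members carrying other classes' markers the median was 0.04, with Ifit1 at -0.16 and Ifit3 at 1.92. The median was -0.04 for contractile genes, 0.04 for immediate early genes, which respond to dissociation, 0.06 for proteoglycans and 0.10 for elastic fibre genes.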

How the data were processed

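The 2 deposited gene by barcode matrices hold UMI counts per gene as the authors deposited them. The submitters' processing notes name Cell Ranger 7.1.0 and mm10, and other filters were not given in the sources used here. Cells were assigned by the rule stated at the opening, UMIs were summed per class and library, and CPM were computed from the sums. Log2 ratios carry exact conditional binomial intervals, shares Clopper-Pearson and Newcombe intervals, and a gene at 0 was set to a floor of 3 counts per class and library. Genes needed a mean of 5 CPM. With 1 library per group, no count model was fitted. No doublet caller was run; cells with 2 or more markers of another class and the deepest 10% of cells were left out in alternatives.

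Named genes were the 26 of the rule, the 12 furthest up and down between libraries at a mean of 50 CPM, the 15 above and 12 below C7/Dpep1 fibroblasts by the smaller of both ratios at 20 CPM, the 10 furthest up with a Saa3 UMI, and members of 13 lists. The members and lists were chosen with earlier results of these data known. Positions came from GENCODE M21 (GRCm38) and promoters from RefSeq. Alternatives changed the cell filter, member rule, scaling (TMM factors from edgeR 4.0.16), weight of cells, minimum and thinning. Scripts ran in R 4.3.3 and in Python 3.11.15 with scipy 1.17.1 for intervals, pandas 2.3.3, and numpy 2.4.6, and were tested on simulated data.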

Additional observations from a re-analysis of the deposited data

Results flagged for a closer look

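For 6 genes of the fixed lists, the ratios of EC-iCD45KO over WT had opposite signs in the 2 fibroblast classes. Their counting intervals left out 0 in both classes. Those lists were chosen with earlier results of these data known, and the number of such genes among all genes is not given here. The difference between classes was not tested, and both classes come from the same pair of libraries. C3 had a log2 ratio of EC-iCD45KO over WT of 0.77 in Saa3/Sfrp4 fibroblasts and -0.79 in C7/Dpep1 fibroblasts. C4b had 0.77 and -0.87, and the metalloreductase gene Steap4 0.73 and -0.72. The Wnt antagonist Sfrp1 had 0.84 and -1.49, and the guidance receptor Robo1 0.68 and -1.11. Dkk3 ran the other way, at -0.73 and 0.70. In the Saa3/Sfrp4 fibroblasts without 2 or more markers of another class, C3 was at -0.06, C4b at -0.03, Steap4 at -0.15 and Sfrp1 at -0.46. Sfrp1 was at -0.08 without the deepest cells, and Robo1 at -0.09 by the mean of single-cell CPM.

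Cells that met the fibroblast and gene balance conditions but had 3 or more endothelial genes were in no comparison, and in EC-iCD45KO they carried the assigning genes above the WT level. There were 146 of them in EC-iCD45KO and 32 in WT. Saa3 had 2077 CPM in the EC-iCD45KO and 226 CPM in the WT cells. Sfrp4 had 907 and 494 CPM, Ccl19 549.5 and 129 CPM, and Chl1 301 and 25.7 CPM. Their median depths were 3106 and 4003 UMIs.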

How the results depend on the processing

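No paired analysis was possible because a group is a single library. Of 489 values for shares, counts of genes and list medians under alternatives, 442 stayed close to the reported value, 42 moved and 5 changed sign. Of 2131 values for single genes, 1567 stayed close. In all, 42 gene values had the other sign, 20 of them without cells carrying 2 or more markers of another class, and 8 of the 42 were of genes called at least 2-fold apart. The cause was not tested. No summary value moved under stricter or looser cell filters, TMM factors, CPM without mitochondrial, ribosomal, haemoglobin and immunoglobulin genes, or without the bone and cartilage cells. That last setting, the one that kept all fibroblasts, and leaving out the deepest 10% of cells were chosen after seeing the data. The gap in the share of fibroblasts was 32.6 points without cells carrying 2 or more markers of another class (48 WT and 92 EC-iCD45KO members left after thinning) and 32.0 points when thinned to 2000 UMIs. The gap in the share of kept barcodes was 5.87 and 3.25 points in those settings, 2.05 with at least 2 genes of a set required, 1.64 without lymphoid barcodes, and 0.205 without these but with all fibroblasts kept. Between libraries, 359 genes were higher and 598 lower by the mean of single-cell CPM, 381 and 731 with no minimum and 0.5 CPM added, and 97 and 123 at a mean of 20 CPM. Against C7/Dpep1 fibroblasts, 34 genes were higher and 48 lower without other classes' markers, 31 and 34 at 20 CPM, 45 lower by the single-cell mean, and 40 lower without the deepest cells.

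Without other classes' markers, the median of EC-iCD45KO over WT was 0.03 for collagens, -0.10 for elastic fibre genes, 0.40 for proteoglycans, -0.21 for contractile genes, -0.10 for complement, 0.28 for insulin-like growth factors, 0.04 for interferon response and -0.10 for immediate early genes. With at least 2 genes of a set, it was 0.31 for acute phase and 0.20 for complement. By the single-cell mean it was 0.42 for collagens and 0.20 for contractile genes. Without the deepest cells it was 0.13 for contractile genes, 0.32 for complement and -0.08 for interferon response. With no minimum it was -0.22 for nerve adhesion genes. Over C7/Dpep1 fibroblasts in WT, the median was 0.10 for proteoglycans and 0.14 for contractile genes without other classes' markers, and 0.31 for nerve adhesion genes with no minimum. In EC-iCD45KO, without other classes' markers, it was 1.04 for acute phase, 0.11 for lymphoid stroma, -0.67 for Wnt, -0.01 for collagens, -0.07 for proteoglycans, -0.61 for contractile genes, 0.56 for complement and 0.53 for immediate early genes, and 0.44 for contractile genes with at least 2 genes of a set. Genes called at least 2-fold apart that changed sign without other classes' markers were Ccl12 (-0.04), Bank1 (0.38), Cxcl13 (0.92) and Ifit3 (1.92) between libraries, and Cxcl5 in WT (-0.32) and EC-iCD45KO (-0.81) and Grin2a in EC-iCD45KO (-1.40) over C7/Dpep1 fibroblasts. That setting left 98 WT and 49 EC-iCD45KO C7/Dpep1 fibroblasts, the latter with a single Cxcl5 UMI at most, so the Cxcl5 values do not settle a direction. Slurp1 was at -1.27 in WT without the deepest cells. Genes near the 5 CPM minimum rest on few UMIs, and the 31 WT members with all 5 assigning genes limit that end of the range.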
